A study of Mus musculus with 9 samples.

Results

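Glycolysis and the fate of pyruvate in mouse islets are described here through 34 genes of sugar uptake, the glycolytic enzymes with their isoforms, lactate handling and the control of pyruvate dehydrogenase. They are the rows of the islet count table whose symbol is among 35 listed symbols, out of 23329 rows in all. The listed gene with no row under its own symbol is Pkm, which the table carries under the older symbol Pkm2. Its values are given below, outside the counts of members.

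RNA was measured in pancreatic islets of male mice, in 4 libraries titled as controls with the genotype Pdx1+/- and 5 titled as mutants with the genotype Pdx1A4. The controls are thus themselves heterozygous for Pdx1, a transcription factor gene on which the pancreas and its beta cells depend. The labels do not explain Pdx1A4 and give no age, driver line or pooling for these libraries. Nor do they state whether each library is its own animal, so the spread behind every p-value is that between libraries and may be technical.

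In glycolysis glucose is taken up, phosphorylated, split and oxidised to pyruvate. Pyruvate then enters mitochondria and the pyruvate dehydrogenase complex, or is reduced to lactate and exported. Most steps have several isozymes that differ between tissues, and the phosphofructokinase step is the main control point inside the pathway. Beta cells are known for sending most pyruvate to mitochondria and for keeping the lactate dehydrogenase gene Ldha and the lactate transporter gene Slc16a1 very low.

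The libraries differed in make-up as well as in genotype. Total counts were 6092010 to 7375376 per control and 7186462 to 9163253 per mutant. The hormone genes (Gcg, Iapp, Ins1, Ins2, Ppy, Pyy and Sst) held 16.9% to 21.0% of counts in controls and at most 7.99% in mutants, with mutants 2 and 3 lowest at 0.0691% and 1.21%. A list of 24 acinar genes, which mark the digestive enzyme cells around islets, held 1.97% to 3.16% of counts in controls and 10.3% to 20.5% in mutants. The summed level of 13 beta cell markers was 108595 to 180156 CPM in controls and 879 to 62221 CPM in mutants, lowest in mutant 2, where CPM are counts per 1e6 after scaling between libraries. Pdx1 itself had 29.5 ± 5.54 CPM in controls against 12.9 ± 6.91 in mutants (SD, n = 4 and n = 5; edgeR adjusted p = 0.0461, and up to 0.113 with 1 library left out). In bulk tissue fewer cells of a type and less RNA per cell cannot be told apart, and this holds for every value below.

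More of the glycolytic and pyruvate genes were lower in mutants than higher. Of the 34 genes 32 passed the filter on low counts, and 12 of these fell in edgeR's quasi-likelihood test, adjusted over all 12402 genes tested with a threshold of 0.05. They were Slc2a3, Gpi1, Pfkl, Pfkm, Pfkp, Aldoc, Tpi1, Pgam1, Eno2, Eno3, Slc16a3 and Pdk3. By the same test 11.8% of all genes were called lower. Pklr and Slc16a1 rose, which makes 2 of 32, where 20.6% of all genes were called higher. The median log2 fold change was -0.57 over the 32 members and 0.04 over all genes tested.

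The 14 called genes had groups that did not overlap. Of the 32 members tested, every mutant library lay below every control in 12, the genes that fell, against 14.7% of all genes. Every mutant lay above every control in 2, Pklr and Slc16a1, against 18.5% of all genes. The called genes were chosen by the same contrast, so their lack of overlap is no added support for the calls. Without mutants 2 and 3 edgeR called 10 members lower, 9 of them among the 12, against 9.78% of all genes. It then called 0 higher, against 10.8% of all genes. Of the members 2 were higher at an unadjusted p under 0.05 in that fit, and Pklr and Slc16a1 had adjusted p of 0.0874 and 0.0864. With all 9 libraries DESeq2 called 15 members lower and 2 higher, against 20.8% and 20.5% of all genes. With RLE scaling, which moved the median of all genes to -0.06, edgeR called 13 members lower and 2 higher, against 16.2% and 17.4% of all genes. The 8 genes Slc2a3, Gpi1, Pfkl, Pfkp, Aldoc, Pgam1, Slc16a3 and Pdk3 kept their call with each of the 9 libraries left out in turn.

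**Figure D1:**
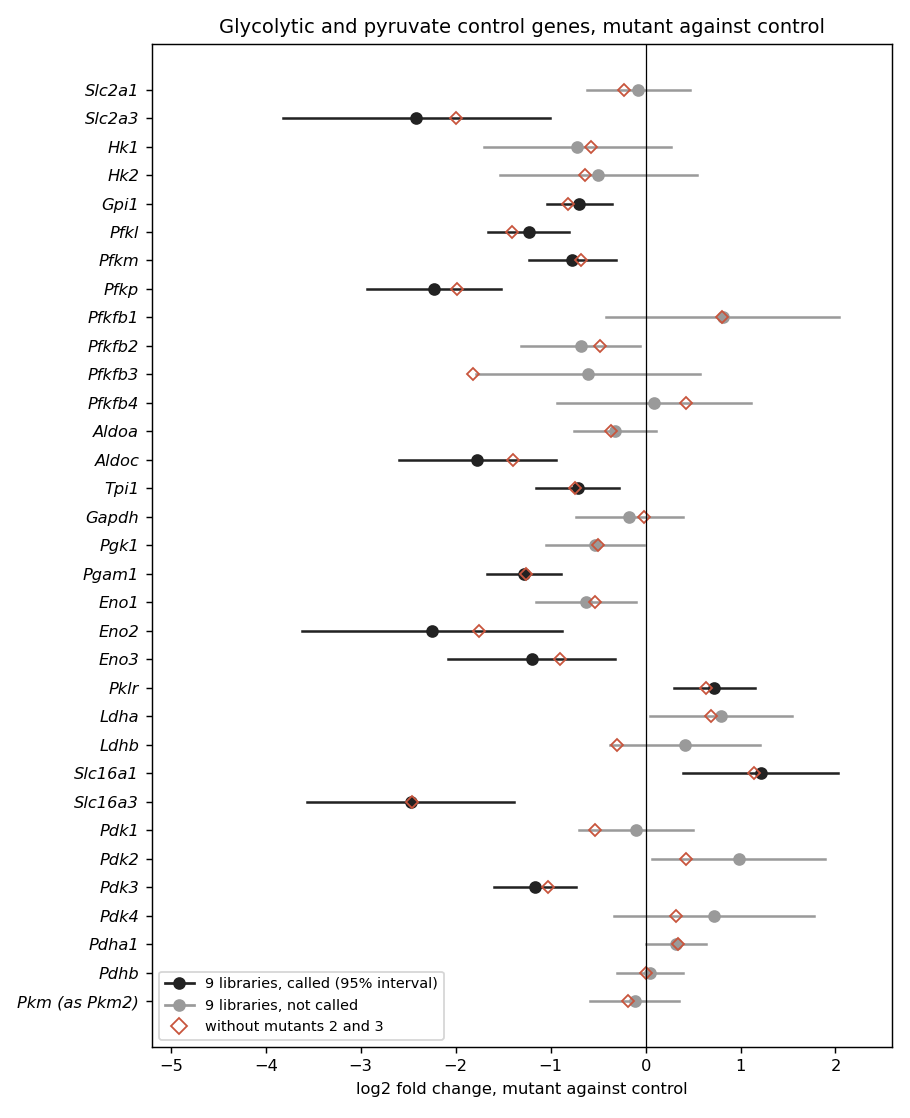
Log2 fold change of mutant against control for the 32 tested members and Pkm, ordered along the pathway. Filled points with bars are edgeR estimates from all 9 libraries with 95% intervals, dark where called, and open diamonds are estimates without mutants 2 and 3. The called genes lie on the left except Pklr and Slc16a1, and Pfkfb3 moves from -0.61 to -1.82 when those libraries are left out.

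Promoter sequence was examined because hypoxia-inducible factor (HIF) and E-box factors are textbook regulators of glycolytic genes. RefSeq windows of 250 bases upstream of the start (GRCm38.p6, 1 per gene, the first listed) matched 33 of the 34 members, all but Slc2a3. For several members, Pgam1 and Slc16a1 among them, the bases after that start were not found near the start of a GENCODE M21 transcript. For others, such as Aldoa, Ldha and Gapdh, the window does not meet the outermost start of the gene. The windows are thus not all verified promoters. The HIF core, ACGTG or GCGTG on either strand, occurred in 25 of 33 windows (75.8%) and in 38.6% of 27025 mouse promoters. The E-box CACGTG, whose letters contain ACGTG on both strands, occurred in 5 windows (15.2%) and in 6.05% of all. The member windows also had more G and C, 58.8% against 53.0%, and more CpG, 13.3 against 9.82 per window. HIF core letters were in 8 of the 11 windows of genes that fell, 1 of 2 of those that rose and 15 of 18 of those not called. Windows of Pgam1, Pfkl and Pdk3, whose fall held with each library left out, and of Slc16a1, which rose, are printed 5′ to 3′ as examples with a match. Gpi1, whose fall also held, and Pklr, which also rose, had 0 matches. HIF core matches on either strand are in capitals.
Pgam1 (chr19:41911621-41911870, plus strand): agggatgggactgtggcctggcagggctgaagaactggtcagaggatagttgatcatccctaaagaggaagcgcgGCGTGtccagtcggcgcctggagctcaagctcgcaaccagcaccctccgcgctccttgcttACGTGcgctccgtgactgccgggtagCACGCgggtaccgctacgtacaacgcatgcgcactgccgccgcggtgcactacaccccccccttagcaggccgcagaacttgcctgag
Pfkl (chr10:78009808-78010057, minus strand): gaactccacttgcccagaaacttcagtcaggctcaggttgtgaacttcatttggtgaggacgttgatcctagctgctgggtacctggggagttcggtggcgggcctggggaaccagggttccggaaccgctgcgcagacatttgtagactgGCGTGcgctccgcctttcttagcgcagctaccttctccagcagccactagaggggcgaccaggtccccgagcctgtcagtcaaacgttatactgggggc
Pdk3 (chrX:93832151-93832400, minus strand): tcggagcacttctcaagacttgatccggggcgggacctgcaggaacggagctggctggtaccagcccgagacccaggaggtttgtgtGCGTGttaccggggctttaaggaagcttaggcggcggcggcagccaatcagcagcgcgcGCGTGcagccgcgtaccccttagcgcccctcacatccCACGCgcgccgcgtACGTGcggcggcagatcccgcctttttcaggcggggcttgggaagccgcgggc
Slc16a1 (chr3:104638414-104638663, plus strand): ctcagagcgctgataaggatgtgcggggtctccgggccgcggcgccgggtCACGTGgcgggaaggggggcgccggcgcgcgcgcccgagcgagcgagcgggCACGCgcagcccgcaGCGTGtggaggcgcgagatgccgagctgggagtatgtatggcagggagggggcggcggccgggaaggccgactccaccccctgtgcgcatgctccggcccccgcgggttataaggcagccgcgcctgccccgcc
Pgam1 held 3 matches, Pfkl 1, Pdk3 4 and Slc16a1 4, of which 2 are the strands of 1 E-box. A match describes letters and is not a site of binding.

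Of the glucose transporter genes, Slc2a1 did not pass and Slc2a3 fell. Slc2a1 encodes the widespread transporter GLUT1 and was at 214, 138, 248 and 327 CPM in controls 1 to 4 and at 246, 241, 237, 224 and 152 CPM in mutants 1 to 5. The groups overlapped, and the log2 fold change was -0.08 with a 95% interval of -0.62 to 0.46 (edgeR adjusted p = 0.824). Slc2a3 encodes the high-affinity transporter GLUT3 and was at 7.25, 5.56, 5.97 and 10.1 CPM in controls and at 1.82, 0, 1.06, 2.49 and 1.34 CPM in mutants. Every mutant was below every control, and the mutant values rest on 0 to 17 counts per library. Slc2a3 fell by 2.42 on the log2 scale (standard error 0.63, edgeR adjusted p = 0.0178).

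Hexokinases trap glucose in the cell as glucose 6-phosphate. Hk1 had 14.8 ± 10.1 CPM in controls against 8.99 ± 3.69 in mutants (SD, n = 4 and n = 5), with a log2 fold change of -0.72 (edgeR adjusted p = 0.224). Hk2 ranged from 11.1 to 59.9 CPM in controls and from 15.5 to 40.7 CPM in mutants, with a log2 fold change of -0.50 (edgeR adjusted p = 0.423). Both genes varied several-fold among the controls alone, and the groups overlapped. Hk3 had 0 to 17 counts per library and was not tested.

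Gpi1 encodes the isomerase that turns glucose 6-phosphate into fructose 6-phosphate. It was at 287, 260.3, 283 and 325 CPM in controls and at 155, 189.9, 187, 216 and 143 CPM in mutants. The highest mutant, mutant 4, was below the lowest control, and mutants 2 and 3 were not the lowest. Gpi1 fell by 0.70 on the log2 scale (standard error 0.15, edgeR adjusted p = 0.00939).

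All 3 genes of phosphofructokinase, the enzyme of the committed step, fell. Pfkl (chromosome 10, positions 77986947 to 78009807 of GRCm38) encodes the liver-type subunit and was at 328, 253, 305 and 382 CPM in controls and at 129, 154, 148, 156 and 89.0 CPM in mutants. Mutants 2 and 3 were among the higher mutants, and the lowest was mutant 5. Its log2 fold change was -1.23 (standard error 0.19, edgeR adjusted p = 0.00296). Pfkp (chromosome 13, positions 6579874 to 6649060) encodes the platelet-type subunit and was at 270.4, 224, 251 and 291 CPM in controls and at 87.1, 31.4, 40.0, 80.6 and 37.1 CPM in mutants. Here mutants 2, 3 and 5 were low and mutants 1 and 4 higher, all far below the controls. Pfkp fell by 2.23 on the log2 scale (standard error 0.32, edgeR adjusted p = 0.00242).

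Pfkm, the muscle-type subunit, was the least abundant of the 3 per kilobase. It had 18.3 ± 2.74 CPM in controls against 10.7 ± 2.57 in mutants (SD, n = 4 and n = 5), with a log2 fold change of -0.77 (edgeR adjusted p = 0.0194). That call was lost without control 1 (edgeR adjusted p = 0.0646) and without mutants 2 and 3 (0.0665). Per kilobase of exon, Pfkl made up 56.0% ± 1.62 in controls and 69.1% ± 8.72 in mutants (SD, n = 4 and n = 5) of the summed level of the 3 genes. Pfkp made up 40.0% ± 1.33 in controls and 23.9% ± 8.30 in mutants (SD, n = 4 and n = 5). Pfkl and Pfkp were thus closer to each other in the control means than in the mutant means.

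The PFKFB enzymes make and break fructose 2,6-bisphosphate, a potent activator of phosphofructokinase. None of their 4 genes passed with all 9 libraries. Pfkfb3, a form with high kinase activity, was at 106, 78.3, 95.2 and 174 CPM in controls and at 44.4, 155, 117, 26.6 and 29.4 CPM in mutants. Mutants 2 and 3 lay within the control range, and mutants 1, 4 and 5 below it. The log2 fold change was -0.61 with all libraries (edgeR adjusted p = 0.389) and -1.82 without mutants 2 and 3 (edgeR adjusted p = 0.00850). Pfkfb2 had 45.5 ± 14.1 CPM in controls against 28.3 ± 9.75 in mutants (SD, n = 4 and n = 5) and did not pass (edgeR adjusted p = 0.0851), except without mutant 1 (0.0395) and in DESeq2 (0.0320). Pfkfb1 and Pfkfb4 had at most 35 counts in any library and log2 fold changes of 0.81 and 0.09 (edgeR adjusted p = 0.263 and 0.891).

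**Figure D2:**
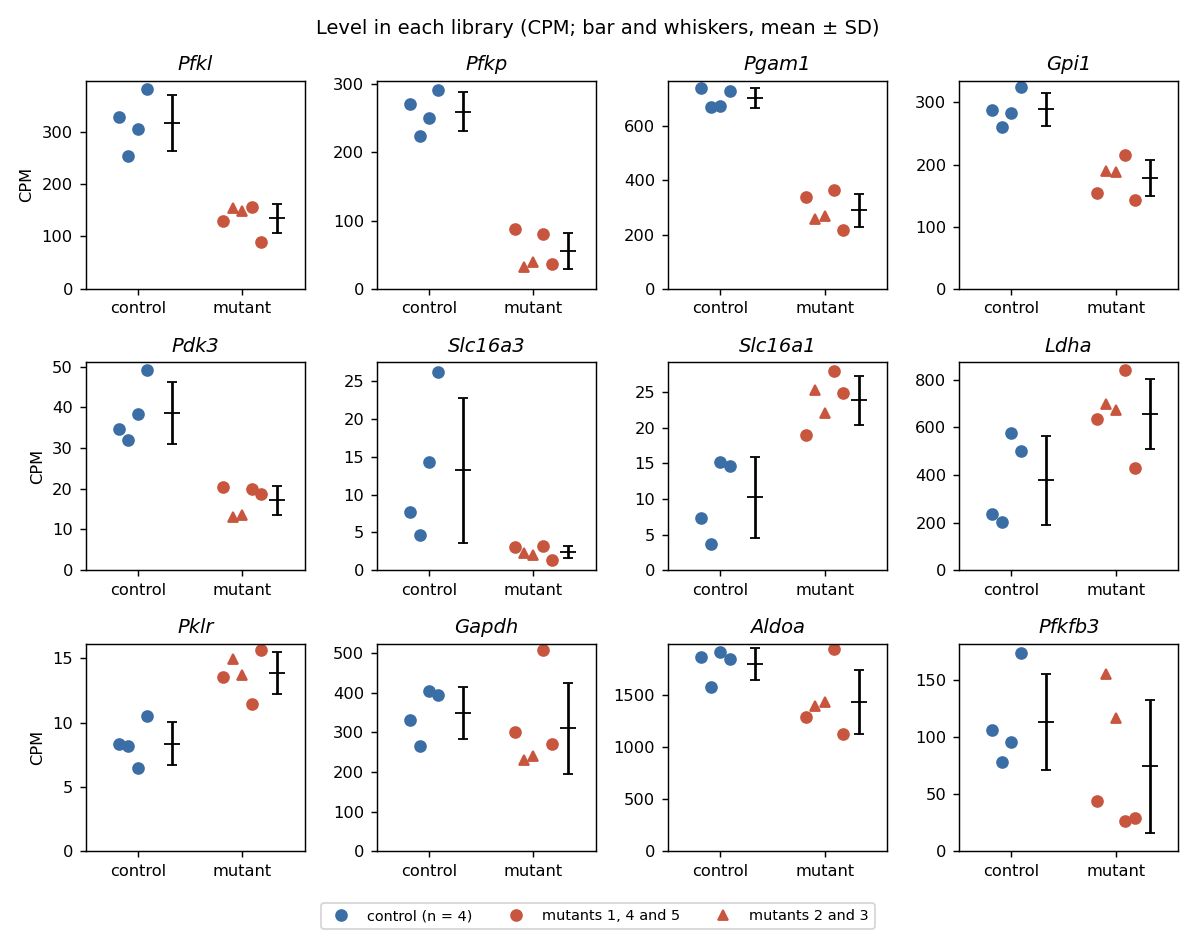
CPM of 12 genes in each of the 9 libraries, on linear axes from 0, with triangles for mutants 2 and 3 and the mean ± SD beside each group. Pfkl, Pfkp, Pgam1, Gpi1, Pdk3 and Slc16a3 lie apart and lower in mutants, Slc16a1 and Pklr lie apart and higher, and Ldha, Gapdh, Aldoa and Pfkfb3 overlap.

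The splitting of the hexose held called and uncalled genes. Aldoa, the muscle-type and more general aldolase, was at 1870.1, 1576, 1913 and 1847 CPM in controls and at 1291, 1398, 1431, 1944 and 1129.6 CPM in mutants. Mutant 4 lay above every control, and the log2 fold change was -0.32 with a 95% interval of -0.76 to 0.11 (edgeR adjusted p = 0.214). Aldoc, the brain-type aldolase, was at 13.1, 16.1, 15.3 and 14.9 CPM in controls and at 6.05, 1.75, 2.43, 7.17 and 4.28 CPM in mutants. Mutants 2 and 3 were the lowest, with the fewest counts, 13, in mutant 2, and no mutant reached a control. Aldoc fell by 1.77 on the log2 scale (standard error 0.37, edgeR adjusted p = 0.00804).

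Tpi1 encodes the isomerase that joins both triose branches. It was at 512, 452, 568 and 539 CPM in controls and at 287, 322, 290.0, 451 and 228 CPM in mutants. Mutant 4 came within 1 CPM of the lowest control, and the log2 fold change was -0.71 (edgeR adjusted p = 0.0222). The call of Tpi1 was lost without control 1, 3 or 4 (edgeR adjusted p up to 0.0534) and without mutants 2 and 3 (0.0580).

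Gapdh and Pgk1, the oxidation step and the first ATP-yielding step, did not pass. Gapdh ranged from 265 to 405 CPM in controls and from 230.1 to 508 CPM in mutants. Its log2 fold change was -0.17 with a 95% interval of -0.73 to 0.39 (edgeR adjusted p = 0.615). Pgk1 was at 448, 478, 501 and 482 CPM in controls and at 303, 298, 299, 529 and 219 CPM in mutants. Mutant 4 was again above every control while the other mutants were below them. The log2 fold change of -0.53 did not pass with all libraries (edgeR adjusted p = 0.0969) and passed without mutant 4 (0.0102), in DESeq2 (0.0311) and in limma-voom (0.0298).

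Pgam1 (chromosome 19, positions 41911871 to 41918665) encodes the phosphoglycerate mutase of most tissues, has its promoter window printed above, and had the lowest adjusted p of the members. It was at 739, 669, 674 and 730.4 CPM in controls and at 340.1, 258, 269.9, 363 and 217 CPM in mutants. The highest mutant was far below the lowest control, and mutants 2 and 3 were in the middle of the mutant range. Pgam1 fell by 1.28 on the log2 scale (standard error 0.17, edgeR adjusted p = 0.00214). The muscle form Pgam2 had at most 2 counts in any library and was not tested.

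Among the enolases Eno2 and Eno3 fell, and Eno1, which made up 98.4% of their summed level per kilobase in controls, did not pass. Eno1, the enolase of most tissues, was at 1636, 1097, 1847 and 1744 CPM in controls and at 1107, 775, 930.2, 1453 and 858 CPM in mutants. Mutants 1 and 4 overlapped control 2, and the log2 fold change was -0.63 (edgeR adjusted p = 0.0660). Eno1 passed without control 2 (0.0246), without mutant 4 (0.0286), with RLE scaling (0.0411), in DESeq2 (0.0111) and in limma-voom (0.01000).

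Eno2 is the enolase of neurons and endocrine cells. It was at 18.2, 19.8, 12.5 and 12.1 CPM in controls and at 6.66, 0.135, 1.97, 3.22 and 4.28 CPM in mutants. The mutant 2 value is 1 count, and the next lowest library was mutant 3. Eno2 fell by 2.25 on the log2 scale (standard error 0.62, edgeR adjusted p = 0.0216), a call lost without control 1 (0.0583). Eno3, the muscle enolase, had 5.59 ± 0.707 CPM in controls against 2.41 ± 1.28 in mutants (SD, n = 4 and n = 5; log2 fold change -1.20, edgeR adjusted p = 0.0414). Its call was lost in 7 of the 9 fits with 1 library left out, those without any 1 control or without mutant 2, 3 or 4 (edgeR adjusted p up to 0.0830), and without mutants 2 and 3 together (0.0940).

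At the pyruvate kinase step Pklr, the liver and red cell form, rose from a low level. It was at 8.34, 8.19, 6.44 and 10.5 CPM in controls and at 13.6, 15.0, 13.7, 11.4 and 15.7 CPM in mutants. The lowest mutant was only just above the highest control. Pklr had a log2 fold change of 0.72 (standard error 0.19, edgeR adjusted p = 0.0188), and the call was lost without control 1, control 2, mutant 2 or mutant 3 (edgeR adjusted p up to 0.0603). Pkm, read from the row named Pkm2, was at 1637, 1166, 1676 and 1813 CPM in controls and at 1383, 1483, 1434, 1887 and 1070.2 CPM in mutants. The groups overlapped, with a log2 fold change of -0.12 and a 95% interval of -0.59 to 0.36 (edgeR adjusted p = 0.691). Per kilobase, Pklr made up 0.462% ± 0.113 in controls and 0.848% ± 0.256 in mutants (SD, n = 4 and n = 5) of the 2 kinase genes.

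Of the genes for the lactate branch, 1 transporter rose and the other fell. Slc16a1 (chromosome 3, positions 104638664 to 104658462) encodes MCT1, which carries lactate and pyruvate, and was at 7.38, 3.66, 15.2 and 14.6 CPM in controls and at 19.0, 25.3, 22.0, 27.9 and 24.9 CPM in mutants. Controls 1 and 2 were lower than controls 3 and 4, and all mutants were above them. Slc16a1 had a log2 fold change of 1.21 (standard error 0.37, edgeR adjusted p = 0.0308), a call lost without control 1, mutant 2, mutant 3, mutant 4 or mutant 5 (edgeR adjusted p up to 0.0872). Slc16a3 (chromosome 11, positions 120948484 to 120959000) encodes MCT4, the lactate exporter of highly glycolytic cells, and was at 7.66, 4.68, 14.3 and 26.3 CPM in controls and at 3.03, 2.29, 1.97, 3.22 and 1.34 CPM in mutants. Its controls spread widely, from control 2 to control 4, and every mutant was below every control, on 10 to 25 counts per mutant library. Slc16a3 fell by 2.48 on the log2 scale (standard error 0.49, edgeR adjusted p = 0.00649).

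Ldha and Ldhb encode the subunits of lactate dehydrogenase, which interconverts pyruvate and lactate. Ldha was at 236, 202, 575 and 499 CPM in controls and at 637, 700.3, 675, 841 and 429.6 CPM in mutants. Controls 1 and 2 were low, while controls 3 and 4 lay above mutant 5. The log2 fold change of 0.80 (95% interval 0.05 to 1.55) did not pass (edgeR adjusted p = 0.0911), and passed without control 3 (0.0477). Ldhb was at 17.6, 19.3, 23.7 and 14.3 CPM in controls and at 17.0, 41.2, 36.4, 13.2 and 17.0 CPM in mutants, highest in mutants 2 and 3. Its log2 fold change was 0.41 with all libraries and -0.30 without those 2 (edgeR adjusted p = 0.380 and 0.357).

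Some markers of other cells also differed among the controls. Of 11 ductal markers 8 were higher in both controls 3 and 4 than in controls 1 and 2. Their summed level was 4502 and 4401 CPM in controls 1 and 2, 12456 and 8294 CPM in controls 3 and 4, and 16527 to 28691 CPM in mutants, with Tff2 among the 3 that did not follow. Of 9 macrophage markers 5 followed, and their sum was 86.4, 76.4, 461 and 382 CPM in controls and 299 to 559 CPM in mutants. That sum rests on Cd14, at 37.9, 40.1, 421 and 313 CPM in controls. Without Cd14 it was 48.5, 36.3, 40.1 and 68.7 CPM in controls and 8.49 to 91.7 CPM in mutants, and C1qa and Adgre1 did not follow the split. Of the list, Cd14 included, 8 markers had enough counts to be tested and 0 were called between the groups, with a median log2 fold change of -0.50. The acinar sum was 15937 to 27267 CPM over all controls and 98931 to 253501 CPM in mutants. The part of these cells in the levels of Ldha, Slc16a1 and Slc16a3 was not tested.

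Pyruvate dehydrogenase kinases switch the complex off by phosphorylating it. Pdk3 (chromosome X, positions 93764616 to 93832150) was the member of the kinase family that fell, and was at 34.7, 31.9, 38.4 and 49.3 CPM in controls and at 20.5, 13.1, 13.7, 19.9 and 18.7 CPM in mutants. Mutants 2 and 3 were the lowest, and the groups were well apart. Pdk3 fell by 1.17 on the log2 scale (standard error 0.19, edgeR adjusted p = 0.00351). Pdk1, the kinase known as a hypoxia target, was at 115, 82.7, 102 and 121 CPM in controls and at 66.5, 132, 129.5, 107 and 55.3 CPM in mutants. It overlapped between groups, with a log2 fold change of -0.10 and a 95% interval of -0.70 to 0.50 (edgeR adjusted p = 0.791).

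Pdk2, a widespread kinase, was at 9.16, 6.0, 9.84 and 9.39 CPM in controls and at 5.33, 27.1, 21.5, 19.2 and 12.0 CPM in mutants. Mutant 1 was below every control, and mutants 2 to 5 were above all of them. The log2 fold change of 0.98 did not pass (edgeR adjusted p = 0.0874) and passed without mutant 1 (0.0107). Pdk4, the kinase induced in fasting, had 5.21 ± 2.13 CPM in controls against 8.56 ± 4.62 in mutants (SD, n = 4 and n = 5; edgeR adjusted p = 0.254). Per kilobase, Pdk3 made up 41.5% ± 3.57 in controls and 24.3% ± 11.02 in mutants (SD, n = 4 and n = 5) of the 4 kinase genes. Pdk2 made up 8.71% ± 1.14 in controls and 19.4% ± 6.06 in mutants (SD, n = 4 and n = 5).

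Neither gene for the E1 subunits of the complex itself passed the test. Pdha1 had 124 ± 13.7 CPM in controls against 155 ± 20.3 in mutants (SD, n = 4 and n = 5), with a log2 fold change of 0.32 and a 95% interval of 0.01 to 0.63 (edgeR adjusted p = 0.0996). Pdhb had 138 ± 29.7 CPM in controls against 142 ± 8.31 in mutants (SD, n = 4 and n = 5), with a log2 fold change of 0.04 and a 95% interval of -0.30 to 0.39 (edgeR adjusted p = 0.847), and of -0.06 with RLE scaling.

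Levels per kilobase of exon put the members in order. In controls Aldoa led with a mean of 702 CPM per kb, followed by Eno1 at 621, Pkm at 605, Pgam1 at 396, Tpi1 at 294, Pgk1 at 261, Gapdh at 234 and Ldha at 199. In mutants Aldoa was at 561, Pkm at 558, Eno1 at 402 and Ldha at 346 CPM per kb, ahead of Gapdh at 208, Pgk1 at 181, Tpi1 at 179 and Pgam1 at 163. By library Ldha was ahead of Pgam1, Tpi1, Pgk1 and Gapdh in every mutant and behind all of them in controls 1 and 2. In control 3 it was ahead of Pgk1 and Gapdh (303 against 274 and 271 CPM per kb), and in control 4 level with them (263, 264 and 264). Several of these genes, Gapdh, Pgk1, Eno1, Aldoa, Ldha and Pgam1 among them, have processed copies in the mouse genome, and the sources used here do not say how reads shared with such copies were counted.

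Ratios of isoforms within a library do not depend on the scaling between libraries. They were compared as log2 ratios of counts, with 0.5 added to each, for 15 pairs of genes, 14 of members and Pklr/Pkm, by an exact permutation test, two-sided, over the 126 ways to split 9 libraries into 4 and 5, where the smallest possible p is 0.00794. After Benjamini-Hochberg adjustment over the 15 pairs, 0 passed, and 7 were at an unadjusted p under 0.05. A single pair at the smallest p would not pass this adjustment. In 5 pairs the groups did not overlap, namely Slc16a3/Slc16a1, Slc2a3/Slc2a1, Pfkp/Pfkl, Aldoc/Aldoa and Eno2/Eno1. The remaining pairs at an unadjusted p under 0.05 were Pklr/Pkm and Pdk1/Pdk2, whose groups overlapped. Their mean log2 ratios differed by 0.86 and -0.98 (exact p = 0.0238 and adjusted p = 0.0595 for each).

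The log2 count ratio of Slc16a3 to Slc16a1 was 0.05, 0.35, -0.09 and 0.84 in controls and -2.63, -3.43, -3.43, -3.09 and -4.15 in mutants. The difference of the means was -3.63, with the smallest exact p the design allows, 0.00794 (adjusted p = 0.0595). Per kilobase, Slc16a1 made up 45.2% ± 6.99 in controls and 90.9% ± 3.16 in mutants (SD, n = 4 and n = 5) of the 2 transporter genes. Pfkp to Pfkl was -0.28, -0.17, -0.28 and -0.39 in controls and -0.56, -2.29, -1.88, -0.95 and -1.26 in mutants. The mean differed by -1.11 (exact p = 0.0159, adjusted p = 0.0595), with mutants 2 and 3 farthest from the controls and mutant 1 nearest.

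In the other pairs without overlap mutant 2 was the extreme library. The mean log2 ratio differed by -2.98 for Slc2a3 to Slc2a1 (exact p = 0.0159, adjusted p = 0.0595), by -1.60 for Aldoc to Aldoa (exact p = 0.0159, adjusted p = 0.0595) and by -2.24 for Eno2 to Eno1 (exact p = 0.0397, adjusted p = 0.0850). The ratios across the pyruvate branch overlapped. Ldha to Pdha1, lactate dehydrogenase against the entry subunit of pyruvate dehydrogenase, differed by 0.59 (exact p = 0.159, adjusted p = 0.265). Pdk1 to Pdha1 differed by -0.49 (exact p = 0.198, adjusted p = 0.298). The isozyme pair Ldha to Ldhb also overlapped and differed by 0.62 (exact p = 0.262, adjusted p = 0.327).

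**Figure D3:**
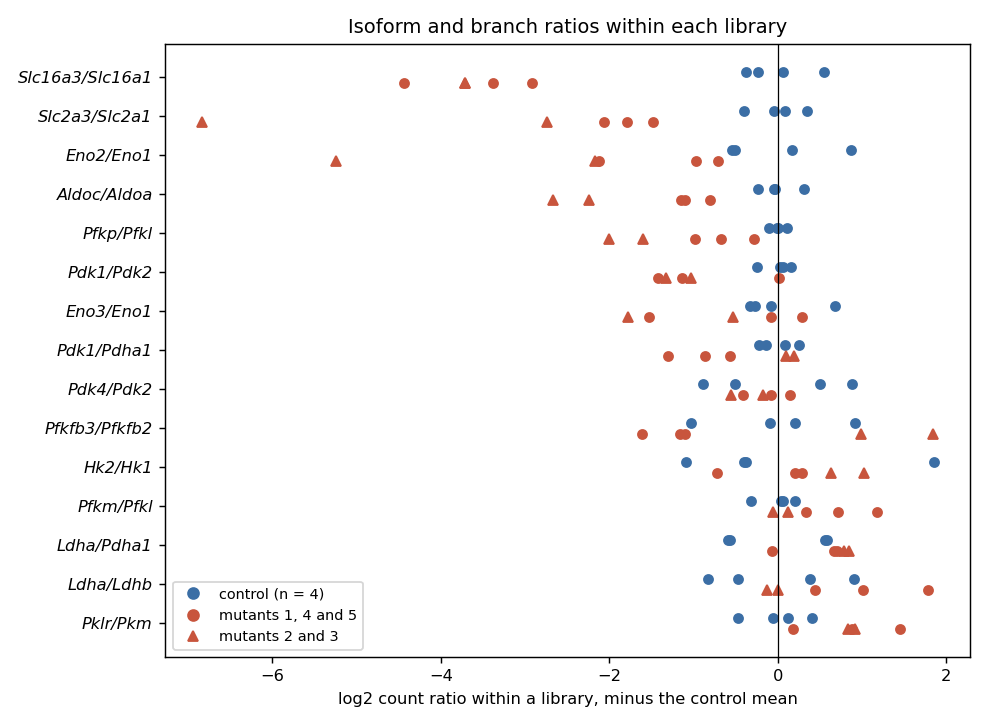
Log2 count ratio of 15 gene pairs in each library, shown as the distance from the mean of the 4 controls, with triangles for mutants 2 and 3. The mutants lie left of all controls in Slc16a3/Slc16a1, Slc2a3/Slc2a1, Eno2/Eno1, Aldoc/Aldoa and Pfkp/Pfkl, and mutant 2 lies farthest left in Slc2a3/Slc2a1 and Eno2/Eno1.

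The fallen genes differed in how they followed the endocrine content of the mutant libraries, here the mean log2 CPM of 19 endocrine secretory genes. That score was 7.91, 7.83, 7.45 and 7.73 in controls, 6.79, 6.27 and 6.27 in mutants 1, 4 and 5, 4.79 in mutant 3 and 2.33 in mutant 2. Eno2, Aldoc and Slc2a3 were lowest in mutant 2 and next lowest in mutant 3, and so were Pdk3 and Pfkm. For Slc2a3 the order of mutants 3 and 5 rests on 7 and 10 counts. For Pfkm mutants 3 and 1 were nearly level, at 9.25 and 9.32 CPM. Pfkl and Pgam1 were no lower in mutants 2 and 3 than in mutant 5, where the score was higher. These orders are a description and were not tested. With the score as a covariate edgeR called 4 members lower, against 0.50% of all genes, and 0 higher, against 3.77%, with 3 higher at an unadjusted p under 0.05. The 4 were Pfkl (log2 fold change -1.42, adjusted p = 0.0249), Pfkp (-1.60, 0.0301), Pgam1 (-1.12, 0.0345) and Pfkfb3 (-2.21, 0.0410). Gpi1, Slc16a3 and Tpi1 no longer passed although their log2 fold changes stayed as large or nearly so, at -0.81, -2.41 and -0.73 (edgeR adjusted p = 0.0665, 0.0891 and 0.165). Those of Pdk3, Pfkm and Eno3 were -0.83, -0.51 and -0.71 (edgeR adjusted p = 0.0734, 0.310 and 0.451). Eno2, Aldoc and Slc2a3 had -0.31, -0.87 and -0.68 in that fit (edgeR adjusted p = 0.720, 0.151 and 0.631). Group accounts for 49.8% of the variance of the endocrine score and 93.8% of that of the acinar score. The endocrine score of every mutant was below that of every control, and mutants 2 and 3 largely set its spread among mutants. The covariate fit therefore cannot separate endocrine content from genotype for the calls it kept or lost. Acinar content and genotype cannot be told apart in these libraries either.

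**Figure D4:**
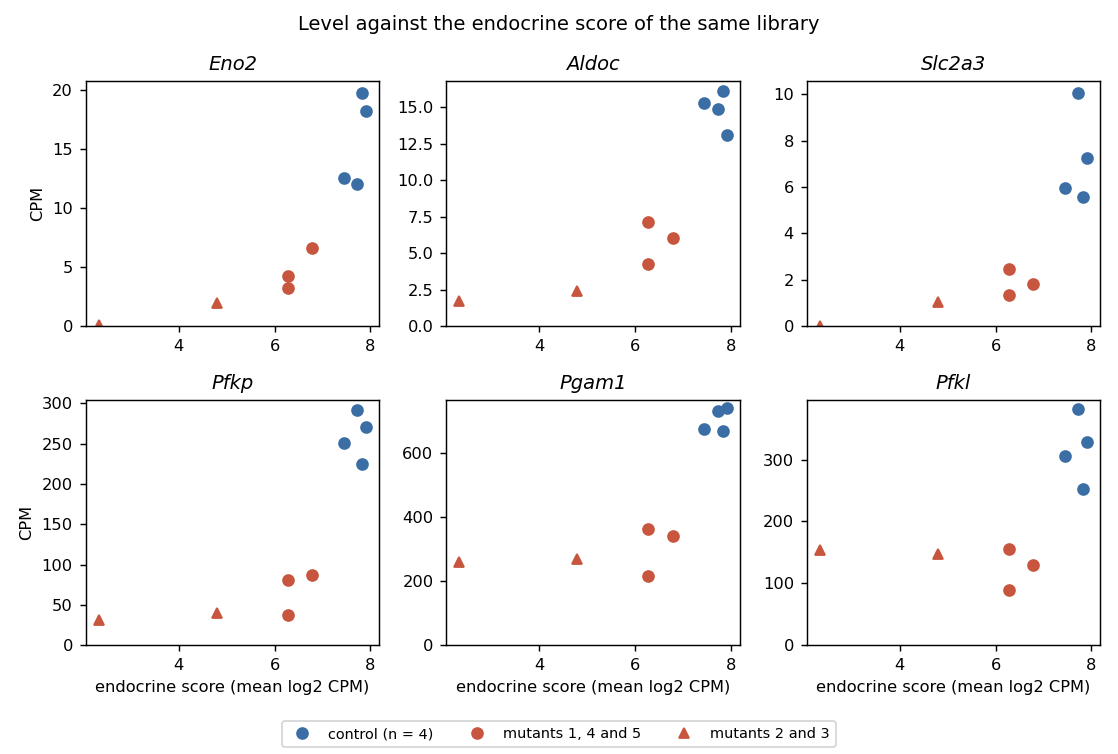
CPM of 6 genes that fell against the endocrine score of the same library (mean log2 CPM of 19 secretory genes), 1 point per library, with triangles for mutants 2 and 3. Eno2, Aldoc and Slc2a3 decline toward the mutants of lowest score, whereas Pgam1 and Pfkl are lowest in mutant 5, not in mutants 2 and 3.

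Other genes of the pathway are set beside the shares of all genes, 20.6% higher and 11.8% lower. Of 9 other glycolysis genes tested 3 rose, with a median log2 fold change of 0.61, and of 18 other pyruvate and lactate genes 4 rose and 1 fell (0.15), which is near those shares. Without mutants 2 and 3 the counts were 2 higher in the first list, and 4 higher and 2 lower in the second. In that fit 10.8% of all genes were called higher and 9.78% lower. Hkdc1, a hexokinase relative, rose by 1.92 on the log2 scale, from 16.1 ± 4.08 to 61.2 ± 23.9 CPM (edgeR adjusted p = 0.00387). Bpgm, which makes 2,3-bisphosphoglycerate, rose by 0.88 (edgeR adjusted p = 0.00952). Slc2a2, the beta cell glucose transporter gene, had a log2 fold change of -0.81 and did not pass (edgeR adjusted p = 0.481). Around pyruvate, Pdhx, a subunit of the dehydrogenase complex, rose by 0.65 (edgeR adjusted p = 0.00383) and Slc16a7, the transporter MCT2, by 1.91 (edgeR adjusted p = 0.00791). Pcx, pyruvate carboxylase, had -0.36 with all libraries (edgeR adjusted p = 0.513) and -1.26 without mutants 2 and 3 (0.0124).

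Of 8 pentose phosphate genes tested 5 rose and 1 fell, against 20.6% and 11.8% of all genes, with a median log2 fold change of 0.80. Without mutants 2 and 3 there were 3 higher and 1 lower, against 10.8% and 9.78% of all genes. Taldo1, transaldolase, rose from 174 ± 28.3 to 608 ± 289 CPM (log2 fold change 1.80, edgeR adjusted p = 0.00427) and Pgd, the second dehydrogenase of that pathway, from 78.7 ± 18.4 to 196 ± 22.1 CPM (1.31, adjusted p = 0.00222). Of 6 gluconeogenesis genes 2 rose and 2 fell, with a median of -0.81, and without mutants 2 and 3 there were 1 higher and 3 lower. Slc37a4, the glucose 6-phosphate transporter, fell by 1.59 (edgeR adjusted p = 0.00163) and Fbp1, which reverses the phosphofructokinase step, by 2.31 (edgeR adjusted p = 0.00841), while Pck2 rose by 1.27 (edgeR adjusted p = 0.00222). G6pc2, the islet glucose 6-phosphatase, had -2.12 (edgeR adjusted p = 0.0638). It passed without mutants 2 and 3 (log2 fold change -1.55, 0.00597), without mutant 2 (0.0167), in DESeq2 (0.00969) and in limma-voom (0.0263). Beside these counts stands the acinar sum given above, whose part in them was not tested.

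In the tricarboxylic acid cycle 4 of 17 genes rose and 1 fell, again near the shares of all genes (20.6% and 11.8%). Without mutants 2 and 3 there were 1 higher and 1 lower, against 10.8% and 9.78% of all genes. Those lower shares also stand beside the other counts without mutants 2 and 3 in this paragraph. Among 13 glycogen genes 2 rose and 4 fell, and without those libraries 2 were higher and 2 lower. In the NADH shuttles 2 of 9 genes rose, with and without those libraries. Of 12 regulators of glycolytic genes 1 rose and 2 fell (1 and 3 without mutants 2 and 3). Myc, an E-box factor, rose from 52.6 ± 11.8 to 171 ± 82.0 CPM (log2 fold change 1.70, edgeR adjusted p = 0.00796), highest in mutants 2 and 3. Without them it was 1.05 higher (0.0149). The genes that fell were Egln1 and Egln3, prolyl hydroxylases that mark HIF for degradation, with falls of 1.73 and 1.98 on the log2 scale (edgeR adjusted p = 0.00147 and 0.0121). Hif1a had 223 ± 75.5 CPM in controls against 289 ± 90.3 in mutants (SD, n = 4 and n = 5) and did not pass (edgeR adjusted p = 0.327).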

How the data were processed

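Polyadenylated RNA of 9 islet libraries was available as raw counts, 1 whole number for each gene and library, which the authors deposited unnormalized. Per the submitters' processing notes the project used STAR, Bowtie2, RSEM, HOMER, DESeq2, R 4.1.0, Signac, Seurat, Cell Ranger and build mm10, with no roles given, so the aligner, the counter and the use of strand for these counts are not given in the sources used here. Libraries held 6092010 to 9163253 counts, and no pair within a group agreed within sampling noise. Groups came from titles and genotype labels. Same-numbered controls and mutants deviated with correlations of -0.05 to 0.18, and other control and mutant libraries with -0.26 to 0.22. The numbers thus gave no sign of pairing, but these correlations cannot exclude it.

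Mutant was compared with control by edgeR 4.0.16 (R 4.3.3; filterByExpr, TMM scaling, quasi-likelihood test, two-sided, Benjamini-Hochberg over 12402 genes, threshold 0.05). CPM used TMM-scaled library sizes, standard errors the estimate over the square root of F, and levels per kilobase the union of GENCODE M21 basic exons. Positions and promoters are RefSeq's for GRCm38. Alternatives were RLE scaling, TMM without hormone and acinar genes, no or a stricter count filter, DESeq2 1.42.0, limma-voom 3.58.1 with quality weights, a replicate block, acinar or endocrine score covariates, each library left out, and mutants 2 and 3 left out. The pipeline was tested on simulated data. Every member found is named, with up to 3 genes of lowest p per other list and a few set genes, of which part are printed and 1 is not reported here. Members and lists were chosen with earlier results of these data known.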

Additional observations from a re-analysis of the deposited data

Results flagged for a closer look

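Among 96 sets of library values of 1 group (log2 CPM of single genes or log2 ratios of pairs), 5 had a highest or lowest library far from the rest by Dixon's 95% criterion, and chance flags about 1 in 20 such sets. Slc2a1 was low in mutant 5, with a log2 CPM of 7.25 against 7.81 to 7.94 in the other mutants. Pdk2 was low in control 2, at 2.65 against 3.24 to 3.34. The log2 ratio of Slc2a3 to Slc2a1 was -11.81 in mutant 2, where Slc2a3 had 0 counts, against -7.70 to -6.45. The ratio of Pdk1 to Pdk2 was 3.63 in mutant 1 against 2.19 to 2.58, and that of Ldha to Pdha1 was 1.41 in mutant 5 against 2.14 to 2.32.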

How the results depend on the processing

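The 12 lower calls were all kept under RLE scaling, TMM without hormone and acinar genes, both other count filters, DESeq2 and limma-voom. These settings called 12 to 15 members lower, against 9.16% to 20.8% of all genes, and 2 higher, against 12.0% to 24.3%. RLE scaling moved the members' median from -0.57 to -0.67. Leaving out 1 library gave 8 to 13 members lower, against 5.53% to 15.3% of all genes, and 0 to 3 higher, against 12.9% to 22.2%. Leaving out mutants 2 and 3 gave 10 lower and 0 higher, against 9.78% and 10.8% of all genes. The fewest lower calls, 8 against 5.53% of all genes, came without control 1. There were 0 higher without control 1, mutant 2 or mutant 3 (2 at an unadjusted p under 0.05 in each), 1 without control 2, mutant 4 or mutant 5, and 3 without control 3 or mutant 1. With the replicate block, in which mutant 5 stands alone, 7 were lower (6.24% of all genes), all of them among the 12. In that fit 0 were higher (3 at an unadjusted p under 0.05), against 13.4% of all genes. With the endocrine score as covariate, which did not overlap between groups, 4 were lower (0.50% of all genes) and 0 higher (3.77%). With the acinar score, which largely coincides with group, 0 were lower and 0 higher (8 and 1 at an unadjusted p under 0.05, and 0 of all genes called). For the isoform ratios 0 passed in the alternatives, most of which leave fewer splits and little room to pass, so this says nothing on their stability.

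The following log2 fold changes changed sign, and the cause was not tested. Under the acinar covariate they were Hk1 0.44, Hk2 0.67, Pfkfb1 -2.77, Pfkfb2 1.44, Eno2 1.08, Eno3 1.76, Ldha -0.77, Ldhb -1.82, Pdk2 -2.57, Pdk4 -3.59, Pdha1 -0.0475, Pdhb -0.39, Slc2a2 1.80, G6pc2 1.61, Pdx1 0.44, Bpgm -0.44, Slc16a7 -0.45 and Myc -0.0939. Under the endocrine covariate they were Gapdh 0.16, Ldhb -0.58, Pdk4 -0.0099, Slc2a2 1.78 and G6pc2 0.15. Under the replicate block they were Slc2a1 0.10, Pfkfb4 -0.0080, Pdk1 0.016 and the ratio Pfkfb3/Pfkfb2 0.14. Pfkfb4 was -0.0153 under RLE scaling, -0.0151 under DESeq2 and -0.0119 under limma-voom. Pdhb was -0.0573 under RLE scaling, -0.0569 under DESeq2, -0.0080 under TMM without hormone and acinar genes and -0.0185 without a filter. Without mutants 2 and 3 Ldhb was -0.30 and the ratio Hk2/Hk1 -0.0753. With 1 library left out the ranges that crossed 0 were -0.35 to 0.13 for Slc2a1, -0.19 to 0.34 for Pfkfb4, -0.30 to 0.0522 for Pdk1, -0.0719 to 0.0921 for Pdhb, and for the ratios -0.0745 to 0.91 for Hk2/Hk1, -0.51 to 0.0844 for Pdk4/Pdk2 and -0.72 to 0.14 for Pfkfb3/Pfkfb2. Counting depth limits Slc2a3, Aldoc, Eno2, Eno3, Slc16a3, Pfkfb1 and Pfkfb4, each with 13 counts or fewer in at least 1 library.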
